A study of Mus musculus with 12 samples.

Results

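The interferon-induced IFIT genes *Ifit1*, *Ifit2*, *Ifit3* and *Ifit3b* and the genes that attach the ubiquitin-like protein ISG15 to other proteins or remove it, *Isg15*, *Uba7*, *Ube2l6*, *Herc6* and *Usp18*, were followed across 3 groups of 4T1 cells. These 9 genes were chosen by symbol from 35521 genes with a transcript in the deposited tables. All 9 were among the 12555 genes that passed a filter on low counts, *Ifit3b* only through its Tu-Gr1+CD11b+–primed libraries. In Tu-Gr1+CD11b+–primed 4T1 cells, 8 of the 9 genes rose relative to Spl-Gr1+CD11b+–primed 4T1 cells, from 2.02-fold for *Ube2l6* to 28.6-fold for *Usp18*. *Ifit2*, at 1.15-fold, did not pass the test. Of all tested genes, 4.66% passed it as higher and 2.97% as lower. In Spl-Gr1+CD11b+–primed cells, only *Uba7* passed the test against parental 4T1 cells in the fit of all 12 libraries, at 2.36-fold higher. Of all tested genes, 25.7% passed as higher and 22.5% as lower in that comparison. *Uba7* did not pass with offsets for transcript length or in the authors' normalized counts. In a fit of only the 8 libraries compared, 3 of the genes passed.

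4T1 is a mammary carcinoma line from BALB/c mice, and all 12 RNA-seq libraries came from it. 4T1 cells of 1 group were cultured for 48 h across a membrane with 0.4 µm pores from Gr1+ myeloid cells of the tumor (Tu-Gr1+CD11b+–primed), and those of another from Gr1+ cells of the spleen (Spl-Gr1+CD11b+–primed). The Gr1+ cells were taken by magnetic columns from Balb/C mice injected with 4T1 cells, at day 21 by the labels, whereas the study's methods give a later day for the coculture. The remaining group was parental 4T1. Each group had 4 libraries, with 24566183 to 31637755 reads on transcripts per library. The labels do not say whether replicates were separate cultures or used Gr1+ cells of separate mice, so p-values measure the spread between these libraries, which may be technical. All results are for 1 cell line at 1 time, and both primed groups were compared with the same parental libraries.

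Type I interferons bind the receptor IFNAR, and signalling through the kinases JAK1 and TYK2 leads to the binding of a complex with IRF9 to a sequence called the interferon-stimulated response element. The IFIT proteins made in this response bind viral RNA and other proteins. ISG15 is attached to proteins in a chain like that of ubiquitin, in which UBA7 activates it, UBE2L6 carries it and HERC6, the main ligase in mice, transfers it, and USP18 removes it and also restrains signalling at IFNAR.

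The 4 IFIT genes lie within one cluster on chromosome 19, all on the + strand of GRCm38: *Ifit2* at chr19:34550694-34576419, *Ifit3* at chr19:34583531-34588731, *Ifit3b* at chr19:34607970-34613401 and *Ifit1* at chr19:34640871-34650009. The ISG15 genes lie apart: *Isg15* at chr4:156199424-156200818 (−), *Uba7* at chr9:107975505-107984060 (+), *Ube2l6* at chr2:84798828-84810335 (+), *Herc6* at chr6:57581000-57664632 (+) and *Usp18* at chr6:121245906-121270917 (+). RefSeq promoters (GRCm38.p6, from 250 bases before to 50 bases after a transcription start) were found for 8 of the 9 genes, all but *Usp18*. They were searched on both strands for the core of the interferon-stimulated response element, GAAA, any 2 bases and GAAA (TTTC, any 2 bases and TTTC on the other strand). It was found in 4 of them, *Ifit1*, *Ifit3*, *Ifit3b* and *Isg15*, which are shown because the genes rose and the element is the one that the IRF9 complex binds. The stretches lie upstream of the start, run 5′ to 3′ on the gene's strand and have the matches in capitals. They are *Ifit1* chr19:34640770-34640828 (+), *Ifit3* chr19:34583358-34583431 (+), *Ifit3b* chr19:34607754-34607827 (+) and *Isg15* chr4:156200860-156200911 (−).
Ifit1: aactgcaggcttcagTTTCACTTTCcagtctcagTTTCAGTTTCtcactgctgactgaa
Ifit3: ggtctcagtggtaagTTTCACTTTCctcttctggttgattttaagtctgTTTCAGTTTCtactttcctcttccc
Ifit3b: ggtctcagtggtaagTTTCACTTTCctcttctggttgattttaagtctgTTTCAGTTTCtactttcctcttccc
Isg15: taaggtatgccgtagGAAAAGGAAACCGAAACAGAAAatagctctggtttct

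*Ifit1*, *Ifit3* and *Ifit3b* each held 2 matches, and *Isg15* held 3 that overlap in one run. The stretches of *Ifit3* and *Ifit3b* were the same, and over their promoters 259 aligned bases were identical, 1 differed and 80 positions were gaps. Of 32851 RefSeq promoters of this length, 3.44% held a match. The promoters of *Uba7*, *Ube2l6* and *Herc6*, and both promoters of *Ifit2*, held none of these letters in this window. A match is a description of the sequence, and no binding was measured.

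Values are TMM-scaled CPM, a gene's count scaled to a common library size, unless another unit is named, listed from replicate 1 to replicate 4. Log2 fold changes, standard errors (SE) and Benjamini-Hochberg adjusted p are from edgeR's quasi-likelihood test, fitted once across all 12 libraries. A gene was called at an adjusted p under 0.05.

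Between Tu-Gr1+CD11b+–primed and Spl-Gr1+CD11b+–primed cells, 8 of the 9 genes were called higher and 0 lower, where 4.66% of all tested genes were called higher and 2.97% lower. All 9 had an unadjusted p under 0.05, and in all 9 the lowest Tu-Gr1+CD11b+–primed library lay above the highest Spl-Gr1+CD11b+–primed one, as it did for 8.51% of all genes. Their median log2 fold change was 2.13, with a range of 0.21 to 4.84, beside a median of -0.01 over all genes. Since *Ifit3b* passed the filter only through the group where it is high, it had to differ. Of the other 8 genes, 7 were called higher, with a median of 1.91. *Usp18*, *Isg15* and *Ifit3b* stand on a signature that the study chose from these libraries, so their direction is not independent evidence.

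*Isg15*, the modifier itself, was at 29.8, 21.0, 13.8 and 5.90 CPM in the Tu-Gr1+CD11b+–primed libraries. It was at 1.98, 2.07, 1.96 and 2.02 CPM in the Spl-Gr1+CD11b+–primed libraries and at 2.29, 2.39, 2.93 and 2.72 CPM in the parental ones. Every Tu-Gr1+CD11b+–primed library was thus above every other library, and the Spl-Gr1+CD11b+–primed libraries were the most alike. Of the 31-base windows of its transcripts, 13.1% also occur in transcripts of other genes. The log2 fold change was 3.13 (SE 0.38, adjusted p = 0.000135) over Spl-Gr1+CD11b+–primed cells and 2.77 (SE 0.37, adjusted p = 2.76e-05) over parental cells.

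*Uba7*, the activating enzyme, was at 15.7, 12.04, 11.7 and 6.28 CPM in Tu-Gr1+CD11b+–primed cells. It was at 2.45, 4.43, 3.09 and 4.21 CPM in Spl-Gr1+CD11b+–primed and at 1.48, 1.36, 1.26 and 1.88 CPM in parental cells. In CPM the 3 groups did not overlap, whereas in TPM the lowest Tu-Gr1+CD11b+–primed library (3.89) lay below the highest Spl-Gr1+CD11b+–primed one (4.18), and the lowest of those (1.504) below the highest parental one (2.57). *Uba7* was the only 1 of the 9 genes called in every comparison. Its log2 fold change was 1.69 (SE 0.24, adjusted p = 0.000601) between the primed groups, 2.93 (SE 0.27, adjusted p = 1.77e-06) for Tu-Gr1+CD11b+–primed against parental cells and 1.24 (SE 0.29, adjusted p = 0.00334) for Spl-Gr1+CD11b+–primed against parental cells. With offsets for transcript length, the log2 fold change was 1.63 between the primed groups, with a larger SE of 0.48 (adjusted p = 0.0807), and 1.17 (SE 0.54, adjusted p = 0.103) for Spl-Gr1+CD11b+–primed against parental cells.

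In the primed libraries, the reads of *Uba7* were assigned mostly to transcripts other than its protein-coding one. The annotation gives it 15 transcripts, of which 1 is protein coding, and that transcript was assigned 123 reads in Tu-Gr1+CD11b+–primed replicate 1 and 0 in the other 3 replicates. It was assigned 0 reads in all 4 Spl-Gr1+CD11b+–primed libraries and 8.3, 21.2, 23.0 and 0 reads in the parental ones. In Tu-Gr1+CD11b+–primed cells, transcripts with a retained intron held 45.1% to 67.2% of the reads of *Uba7*, and transcripts marked for nonsense-mediated decay held 26.5% to 48.0%. The rise of *Uba7* is thus a rise of reads over the gene, and its coding transcript alone had too few reads to be tested. The transcript lengths used for its TPM change with this assignment. *Uba7* also overlaps the exons of *Gm20661* on the same strand, which was assigned 0 reads in all 12 libraries.

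**Figure D1:**
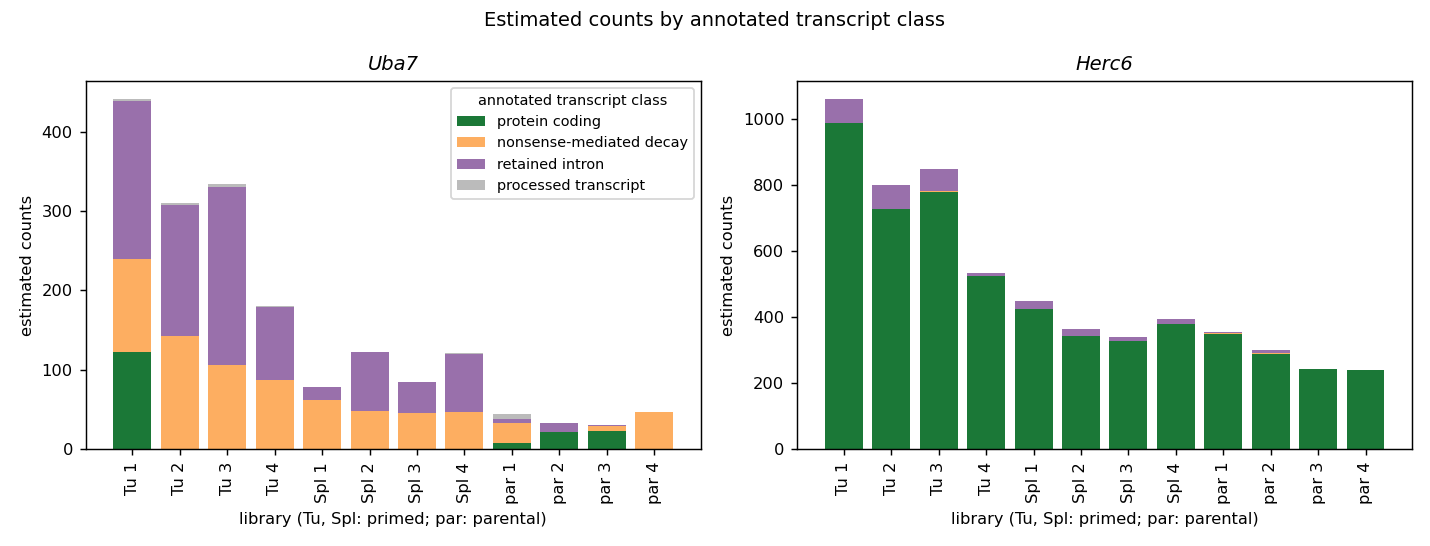
Estimated counts (vertical axis) of *Uba7* and *Herc6* in each of the 12 libraries, stacked by annotated transcript class; Tu and Spl are primed and par is parental. Most *Uba7* reads in the primed libraries sit on retained-intron and nonsense-mediated decay transcripts, whereas at least 90.6% of *Herc6* reads are on the protein-coding transcript in every library.

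*Ube2l6*, the conjugating enzyme, was at 15.2, 13.7, 11.3 and 9.06 CPM in Tu-Gr1+CD11b+–primed cells. It was at 5.55, 5.99, 6.06 and 6.71 CPM in Spl-Gr1+CD11b+–primed and at 7.25, 7.25, 7.76 and 7.67 CPM in parental cells. Tu-Gr1+CD11b+–primed cells were highest and Spl-Gr1+CD11b+–primed cells lowest, with no overlap between any of the groups in CPM. In TPM, which are scaled for transcript length, the lowest Tu-Gr1+CD11b+–primed library (9.43) lay below the highest Spl-Gr1+CD11b+–primed one (10.6), and the Spl-Gr1+CD11b+–primed mean of 8.34 was above the parental mean of 7.69. The log2 fold change was 1.02 (SE 0.13, adjusted p = 0.000267) between the primed groups and 0.72 (SE 0.13, adjusted p = 0.000373) over parental cells. In the authors' normalized counts, tested with limma, these were 0.88 and 0.56 with a larger SE of 0.24 and did not pass, at adjusted p = 0.0648 and 0.0713.

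*Herc6*, the ligase, was at 37.7, 31.1, 29.6 and 18.5 CPM in Tu-Gr1+CD11b+–primed cells. It was at 14.1, 13.2, 12.4 and 13.7 CPM in Spl-Gr1+CD11b+–primed and at 11.96, 12.4, 10.2 and 9.59 CPM in parental cells. All Tu-Gr1+CD11b+–primed libraries were above the others, and the log2 fold change was 1.13 (SE 0.16, adjusted p = 0.000546) over Spl-Gr1+CD11b+–primed cells and 1.404 (SE 0.17, adjusted p = 1.03e-05) over parental cells. Its protein-coding transcript held 90.6% to 98.0% of its reads in Tu-Gr1+CD11b+–primed cells and 94.4% to 96.4% in Spl-Gr1+CD11b+–primed cells. *Gm45193* overlaps its exons on the same strand.

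*Usp18*, the protease that removes ISG15, was at 22.9, 14.8, 9.40 and 2.12 CPM in Tu-Gr1+CD11b+–primed cells. It was at 0.22, 0.69, 0.40 and 0.42 CPM in Spl-Gr1+CD11b+–primed and at 0.54, 0.25, 0.55 and 0.28 CPM in parental cells. The control values rest on 7 to 19 reads in Spl-Gr1+CD11b+–primed and 6 to 16 reads in parental libraries, against 61 to 644 in Tu-Gr1+CD11b+–primed ones. Even the lowest Tu-Gr1+CD11b+–primed library was above every other library. The log2 fold change was the largest of the 9 genes, at 4.84 (SE 0.62, adjusted p = 0.000229) over Spl-Gr1+CD11b+–primed and 4.90 (SE 0.64, adjusted p = 2.24e-05) over parental cells. *Gm44148* overlaps its exons on the opposite strand.

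*Ifit1*, an RNA-binding protein of the antiviral response, was at 22.1, 13.1, 8.84 and 4.65 CPM in Tu-Gr1+CD11b+–primed cells. It was at 3.11, 2.07, 1.63 and 2.96 CPM in Spl-Gr1+CD11b+–primed and at 2.97, 2.14, 2.56 and 2.68 CPM in parental cells, which overlapped each other and lay below all Tu-Gr1+CD11b+–primed libraries. The log2 fold change was 2.31 (SE 0.37, adjusted p = 0.00143) between the primed groups and 2.23 (SE 0.38, adjusted p = 0.000189) over parental cells. Of its 31-base windows, 9.16% also occur in the neighbouring *Ifit1bl2*. The log2 fold change of *Ifit1bl2* between the primed groups was 1.71 (SE 0.41, adjusted p = 0.0200). It had 12 to 29 reads in Tu-Gr1+CD11b+–primed, 4 to 10 in Spl-Gr1+CD11b+–primed and 2 to 9 in parental libraries. Like *Ifit3b*, it passed the filter only through its Tu-Gr1+CD11b+–primed libraries, so this call rests on a gene kept for its level there. *Ifit1bl1* had 0 to 4 reads in every library and was not tested.

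*Ifit2* stood apart from the other 8 genes. It was at 14.2, 11.4, 12.1 and 11.7 CPM in Tu-Gr1+CD11b+–primed, at 11.2, 10.9, 9.19 and 11.4 CPM in Spl-Gr1+CD11b+–primed and at 10.1, 9.80, 10.6 and 9.99 CPM in parental cells. The lowest Tu-Gr1+CD11b+–primed and the highest Spl-Gr1+CD11b+–primed library were nearly equal. The log2 fold change was 0.21 (SE 0.09, adjusted p = 0.170) between the primed groups and 0.28 (SE 0.09, adjusted p = 0.0123) over parental cells, the latter with an adjusted p of 0.0506 without Tu-Gr1+CD11b+–primed replicate 1. None of the 31-base windows of *Ifit2* or *Usp18* is shared with another gene, and 1.19% of those of *Herc6*, 2.89% of *Uba7* and 7.61% of *Ube2l6* are.

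*Ifit3* and *Ifit3b* are near-identical copies, and 61.8% of the windows of *Ifit3* occur in *Ifit3b* and 54.1% of those of *Ifit3b* in *Ifit3*, so the division of reads between them is uncertain. *Ifit3* was at 2.20, 2.06, 1.47 and 0.73 CPM in Tu-Gr1+CD11b+–primed and between 0.31 and 0.44 CPM in Spl-Gr1+CD11b+–primed cells, with a log2 fold change of 2.13 (SE 0.38, adjusted p = 0.00309). In parental cells it was at 0.84, 0.29, 0.34 and 0.48 CPM, so that parental replicate 1 lay above the lowest Tu-Gr1+CD11b+–primed library, and the log2 fold change was 1.69 (SE 0.37, adjusted p = 0.00142). *Ifit3* was thus the only 1 of the 9 genes whose Tu-Gr1+CD11b+–primed and parental libraries overlapped in CPM. In TPM its lowest Tu-Gr1+CD11b+–primed library (0.663) lay above its highest parental one (0.602).

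*Ifit3b* was at 4.58, 2.60, 1.33 and 0.69 CPM in Tu-Gr1+CD11b+–primed cells, at 0.24 to 0.29 CPM in Spl-Gr1+CD11b+–primed and at 0.17, 0.12, 0.04 and 0.32 CPM in the parental libraries. The log2 fold change was 3.08 (SE 0.54, adjusted p = 0.00257) between the primed groups and 3.76 (SE 0.59, adjusted p = 0.000107) over parental cells, where it rests on 1 to 8 reads. In the Spl-Gr1+CD11b+–primed and parental libraries alone it did not pass the filter, so these calls rest on a gene kept for its level in Tu-Gr1+CD11b+–primed cells. *Ifit3b* was assigned 67.7%, 55.7%, 47.9% and 48.9% of the reads of the pair in Tu-Gr1+CD11b+–primed cells, 38.4% to 46.3% in Spl-Gr1+CD11b+–primed cells and 12.4% to 40.4% in parental cells. Summed to 1 gene, the pair had a log2 fold change of 2.62 (SE 0.43, adjusted p = 0.00150) between the primed groups and 2.55 (SE 0.43, adjusted p = 0.000187) over parental cells.

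**Figure D2:**
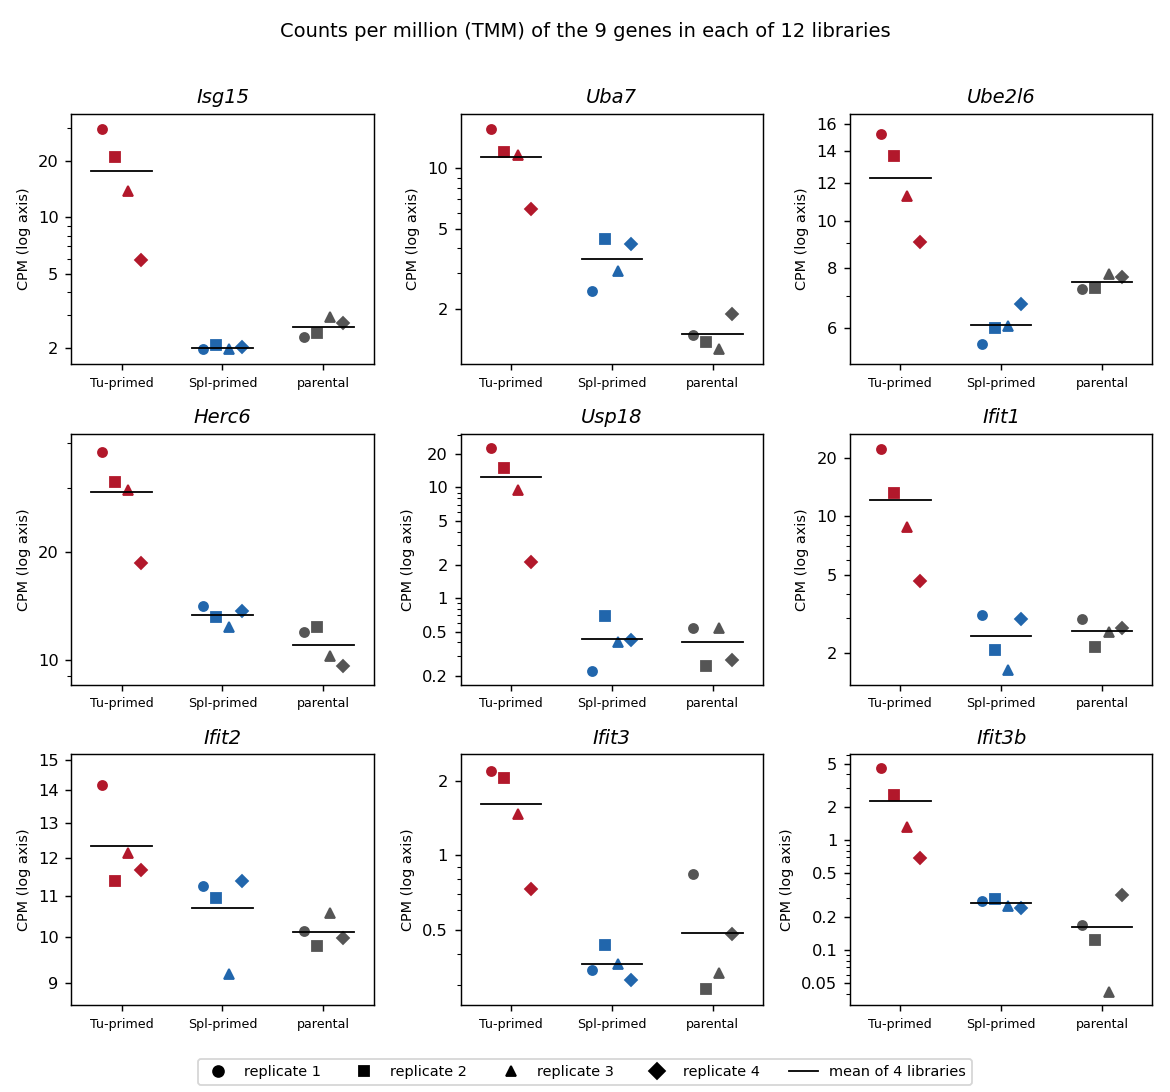
CPM (log axes, each with its own range) of the 9 genes in every library, with 1 marker shape per replicate number and lines at the mean of 4 libraries. For all genes but *Ifit2*, the Tu-primed libraries spread widely, with replicate 1 highest and replicate 4 lowest, and all lie above the Spl-primed libraries.

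The 9 genes varied widely among the Tu-Gr1+CD11b+–primed libraries. For 8 of the 9 genes, replicate 1 was highest and replicate 4 lowest, with the highest library above the lowest by 1.68-fold for *Ube2l6* to 10.8-fold for *Usp18*. For *Ifit2* the highest was 1.24-fold above the lowest. The SD of log2 CPM over the 4 Tu-Gr1+CD11b+–primed libraries was above the 95th percentile of all genes (0.431) for 7 of the 9 genes, beside 1 of 9 above that percentile of their own group in Spl-Gr1+CD11b+–primed and 2 of 9 in parental cells. The median SD over all genes in Tu-Gr1+CD11b+–primed cells was 0.0883. Without replicate 1 or without replicate 4, the same number of genes, 8, was called between the primed groups.

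For Tu-Gr1+CD11b+–primed against parental cells, all 9 genes passed the test and were higher, where 31.2% of all tested genes were called higher and 28% lower, and 8 of the 9 were higher without overlap, as were 28.6% of all genes. The median log2 fold change was 2.23, with a range of 0.28 to 4.90, beside 0.02 over all genes. Without *Ifit3b*, 8 of 8 genes were called higher, with a median of 1.96.

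In Spl-Gr1+CD11b+–primed against parental cells, 1 of the 9 genes, *Uba7*, was called higher and 0 lower, where 25.7% of all tested genes were called higher and 22.5% lower. At an unadjusted p under 0.05 there were 2, *Uba7* and *Ube2l6*. The median log2 fold change was 0.06, with a range of -0.45 to 1.24, beside 0.02 over all genes. In CPM, the groups did not overlap for 4 genes, with *Uba7* and *Herc6* higher and *Isg15* and *Ube2l6* lower in Spl-Gr1+CD11b+–primed cells. These 2 and 2 of 9 are near the shares of all tested genes without overlap, 21.3% higher and 18.3% lower. In TPM all 4 overlapped, and *Isg15* and *Ube2l6* had the higher mean in Spl-Gr1+CD11b+–primed cells. *Isg15* had a log2 fold change of -0.36 (SE 0.43, adjusted p = 0.514), *Ube2l6* of -0.30 (SE 0.14, adjusted p = 0.0867) and *Herc6* of 0.27 (SE 0.17, adjusted p = 0.200). The fit takes 1 spread per gene from all 3 groups. Fitted on the 8 Spl-Gr1+CD11b+–primed and parental libraries alone, *Ube2l6* (adjusted p = 0.0229) and *Herc6* (adjusted p = 0.0380) were called too, and *Isg15* had an SE of 0.15 and an adjusted p of 0.0680. Without Tu-Gr1+CD11b+–primed replicate 4, the count was also 3.

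**Figure D3:**
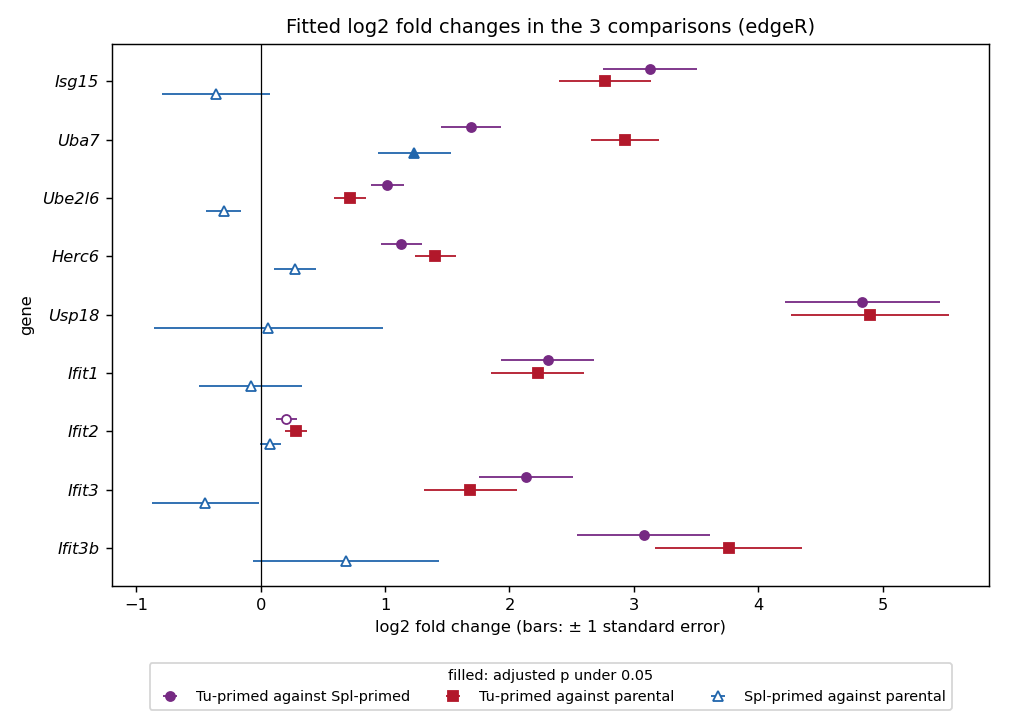
Fitted log2 fold changes (horizontal axis) of the 9 genes in the 3 comparisons, with bars of 1 standard error and filled symbols for an adjusted p under 0.05. Tu-primed cells differ from Spl-primed cells by 1.02 or more for all genes but *Ifit2*, and the comparison of Spl-primed with parental cells has 1 filled symbol, *Uba7*.

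Levels were compared between genes in TPM, which are scaled for length, within each group. In Tu-Gr1+CD11b+–primed cells *Isg15* was highest at 54.5 ± 31.1 TPM (SD, n = 4), followed by *Ube2l6* at 16.5, *Usp18* at 11.5, *Herc6* at 10.1, *Uba7* at 7.70, *Ifit1* at 6.90, *Ifit2* at 4.86, *Ifit3b* at 1.79 and *Ifit3* at 1.47 TPM. Of the neighbours in that order, only *Ifit2* and *Ifit3b* did not overlap in their libraries. In Spl-Gr1+CD11b+–primed cells *Ube2l6* came first, at 8.34 ± 1.82 TPM, above *Isg15* at 5.98 ± 0.38 TPM, with no overlap. *Isg15* in turn lay above *Herc6* without overlap. *Herc6* at 4.64, *Ifit2* at 4.05, *Uba7* at 2.45 and *Ifit1* at 1.34 TPM followed, each overlapping the next, and *Usp18* at 0.375, *Ifit3* at 0.325 and *Ifit3b* at 0.197 TPM were lowest. In parental cells *Ube2l6* at 7.69 ± 1.30 TPM and *Isg15* at 5.80 ± 0.45 TPM overlapped, and *Herc6* at 2.94, *Ifit2* at 2.87, *Ifit1* at 1.07, *Uba7* at 1.01, *Ifit3* at 0.325 and *Usp18* at 0.265 TPM followed. *Isg15* and *Herc6*, and *Ifit2* and *Ifit1*, did not overlap. *Ifit3b* was again lowest, at 0.0924 ± 0.056 TPM. By these means *Usp18* ranked 3 of 9 in Tu-Gr1+CD11b+–primed, 7 of 9 in Spl-Gr1+CD11b+–primed and 8 of 9 in parental cells. Library by library its rank was 2, 3, 4 and 7 in Tu-Gr1+CD11b+–primed cells, 9, 7, 7 and 7 in Spl-Gr1+CD11b+–primed cells and 8, 8, 7 and 9 in parental cells. In Tu-Gr1+CD11b+–primed replicate 4, where it was at 1.90 TPM, its rank was thus the same as in 3 of the Spl-Gr1+CD11b+–primed libraries.

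Within a library, the TPM of *Isg15* was divided by that of each gene that handles it, to compare the modifier with its enzymes. The ratio to *Ube2l6* was 1.94 to 4.54 in Tu-Gr1+CD11b+–primed libraries, 0.589 to 0.873 in Spl-Gr1+CD11b+–primed and 0.598 to 0.940 in parental ones. The ratio to *Herc6* was 3.10 to 6.77, 1.12 to 1.47 and 1.34 to 2.94, and that to *Usp18* was 4.22 to 9.62, 10.4 to 31.1 and 14.7 to 33.5, in the same order of groups. *Isg15* thus rose more than *Ube2l6* and *Herc6*, and less than *Usp18*. The ratio to *Uba7* was 4.69 to 9.68 in Tu-Gr1+CD11b+–primed and 1.4999 to 3.85 in Spl-Gr1+CD11b+–primed libraries. Between the primed groups, the mean log2 ratio differed by 2.02 for *Ube2l6*, 1.89 for *Herc6*, 1.29 for *Uba7* and -1.64 for *Usp18*. Against parental cells it differed by 1.96 for *Ube2l6*, 1.21 for *Herc6* and -2.08 for *Usp18*. In each of these 7 cases the groups did not overlap and the two-sided exact permutation test over 4 and 4 libraries gave p = 0.0286, the smallest it allows, and 0.0327 after adjustment over 8 tests. The eighth, for *Uba7* against parental cells, was -0.25 (exact permutation p = 0.771), with parental ratios from 2.18 to 15.7. All 7 adjusted p-values were above 0.05 without Tu-Gr1+CD11b+–primed replicate 1 (0.0571 to 0.0980) and without Tu-Gr1+CD11b+–primed replicate 2 (0.0571 to 0.0653). Between the primed groups, the ratio to *Usp18* was also above it without Tu-Gr1+CD11b+–primed replicate 3 or without Spl-Gr1+CD11b+–primed replicate 1, 3 or 4, and that to *Uba7* without Spl-Gr1+CD11b+–primed replicate 4. Against parental cells, the ratio to *Herc6* was above it without any 1 of the 4 parental libraries. The adjusted p was 0.0653 in each of these cases. With 3 against 4 libraries the smallest exact permutation p is also 0.0286, and p moves in steps of that size. Groups without overlap stay so when a library is left out, so an adjusted p above 0.05 here does not mean that they overlapped.

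**Figure D4:**
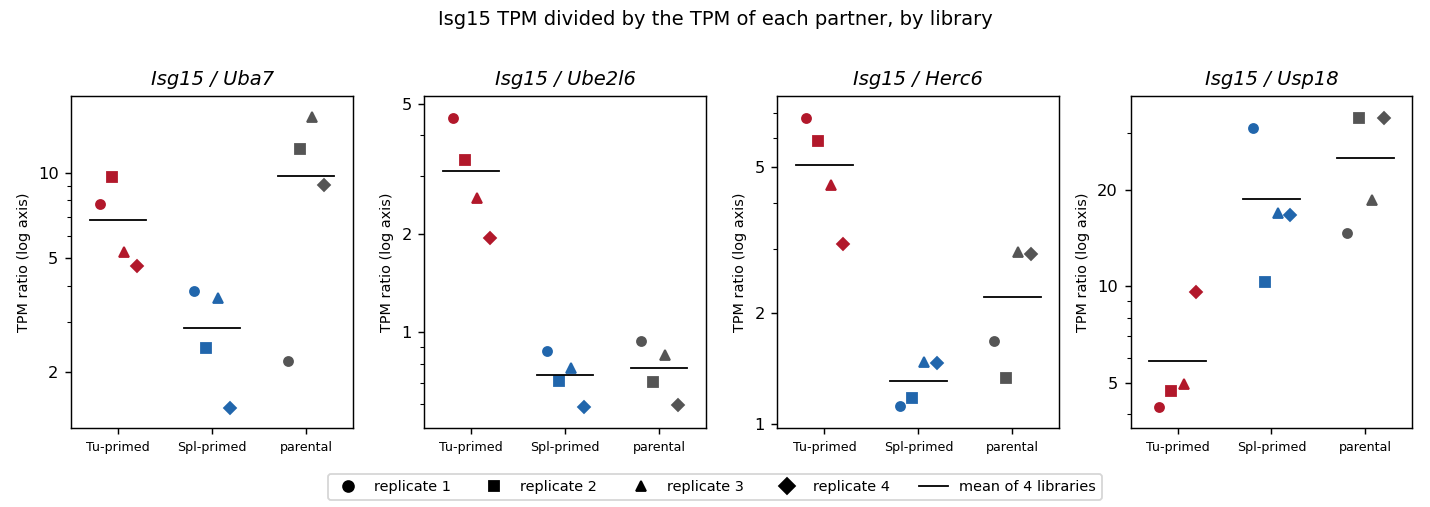
TPM of *Isg15* divided by the TPM of *Uba7*, *Ube2l6*, *Herc6* or *Usp18* in each library (log axes), with lines at the mean of 4 libraries. The Tu-primed ratios lie above the Spl-primed ones for *Uba7*, *Ube2l6* and *Herc6* and below them for *Usp18*, where they run from 4.22 to 9.62.

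Genes of the type I interferon pathway were also counted. Between the primed groups, 10 of 16 tested were called higher and 1 lower, beside 4.66% and 2.97% of all tested genes, and the median of their log2 fold changes was 0.52. *Irf9*, a DNA-binding factor of the interferon response, was at 46.3 ± 14.8 CPM in Tu-Gr1+CD11b+–primed and 7.11 ± 0.89 CPM in Spl-Gr1+CD11b+–primed cells as mean ± SD of 4 libraries (log2 fold change 2.70, SE 0.20, adjusted p = 4.70e-06). *Socs3*, a feedback inhibitor of cytokine signalling, rose by a log2 fold change of 1.15 (SE 0.10, adjusted p = 1.14e-05), and *Mavs*, the adaptor of RNA sensors, fell by 0.28 on the log2 scale (SE 0.07, adjusted p = 0.0293). The summed CPM of the list was 1011, 874, 844 and 684 in Tu-Gr1+CD11b+–primed libraries and 510 to 563 in Spl-Gr1+CD11b+–primed ones, with replicate 1 highest and replicate 4 lowest, as for the 8 genes. Relative to parental cells, Tu-Gr1+CD11b+–primed cells had 12 of the 16 called higher and 2 lower, where 31.2% of all tested genes were called higher and 28% lower. Spl-Gr1+CD11b+–primed cells had 6 of the 16 higher and 1 lower, or 4 higher and 1 lower by limma-voom, beside edgeR shares over all tested genes of 25.7% higher and 22.5% lower. None of 20 interferon genes had more than 3 reads in any library, and 18 were at 0 in all Tu-Gr1+CD11b+–primed, 19 in all Spl-Gr1+CD11b+–primed and 20 in all parental libraries.

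The genes of other ubiquitin-like systems were counted in the same fit, where the share of all genes called between the primed groups was 4.66% higher and 2.97% lower. Of 30 tested enzymes of ubiquitin and other ubiquitin-like modifiers, 0 were called in either direction by edgeR between the primed groups, and their median was 0.01 on the log2 scale. At an unadjusted p under 0.05 there was 1, and DESeq2 and limma-voom also called 0. Of 14 tested modifiers, including ubiquitin, SUMO and NEDD8, 1 was called higher, *Map1lc3b*, an autophagy protein that is attached to lipid, at 0.21 (SE 0.05, adjusted p = 0.0273), and 0 lower. Of 12 other tested genes linked to ISG15, *Trim25*, an interferon-induced ubiquitin ligase, was called higher, with a log2 fold change of 1.00 (SE 0.12, adjusted p = 0.000130). *Skp2*, the substrate receptor of a ubiquitin ligase, fell by 0.26 on the log2 scale (SE 0.06, adjusted p = 0.0122). Relative to parental cells, Tu-Gr1+CD11b+–primed cells had 8 of the 30 enzymes called higher and 10 lower, and Spl-Gr1+CD11b+–primed cells had 7 higher and 8 lower. These enzyme counts are near the shares of all tested genes, 31.2% higher and 28% lower for Tu-Gr1+CD11b+–primed cells and 25.7% higher and 22.5% lower for Spl-Gr1+CD11b+–primed cells. The modifiers were called lower more often than higher, since Tu-Gr1+CD11b+–primed cells had 2 of the 14 higher and 8 lower than parental cells, and Spl-Gr1+CD11b+–primed cells had 1 higher and 9 lower. Their median log2 fold changes were -0.25 and -0.22. Of the 12 other genes linked to ISG15, 1 was called higher and 4 lower in each of these comparisons.

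**Figure D5:**
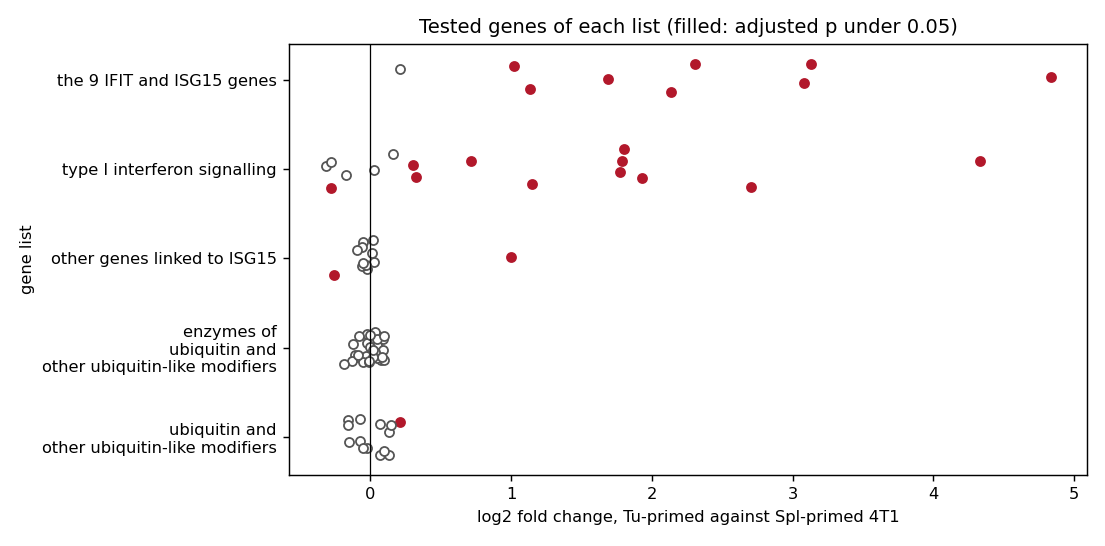
Log2 fold change between Tu-primed and Spl-primed 4T1 cells (horizontal axis) of each tested gene of 5 lists, spread vertically at random, filled where the adjusted p is under 0.05. All IFIT and ISG15 genes but *Ifit2* and part of the type I interferon list lie above 1, while the 30 enzymes of other ubiquitin-like systems lie near 0 with none called.

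For each gene, the tested gene with the nearest profile was found by the root mean square difference of log2 CPM, relative to the parental mean, over the 8 primed libraries. These were *Lgals9* for *Ifit1* (0.271), *N4bp1* for *Ifit2* (0.0649), *Lgals3bp* for *Ifit3* (0.191) and *Phf11d* for *Ifit3b* (0.339). They were *Gbp3* for *Isg15* (0.297), *Oas3* for *Usp18* (0.404), *Gbp9* for *Uba7* (0.359), *Nmi* for *Ube2l6* (0.150) and *Mndal* for *Herc6* (0.0841). None of the 9 genes had another of the 9 as its nearest, but for 6 of them another of the 9 was among the 35 nearest of all tested genes. The nearest of the other 8 genes ranked 7 for *Isg15*, 11 for *Ifit1*, 19 for *Usp18*, 20 for *Ifit3b*, 23 for *Ifit3* and 35 for *Uba7*. It ranked 177 for *Herc6*, 360 for *Ube2l6* and 7202 for *Ifit2*.

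Markers of Gr1+ cells were counted because the cells were cultured in the same wells across a membrane. Of 20 granulocyte and monocyte markers, 9 were at 0 in all Tu-Gr1+CD11b+–primed and in all Spl-Gr1+CD11b+–primed libraries, among them *Mpo*, *Elane*, *Camp* and *Tyrobp*. The summed CPM of the 20 was 166 to 201 in Tu-Gr1+CD11b+–primed, 146 to 162 in Spl-Gr1+CD11b+–primed and 141 to 145 in parental cells, and *Mmp9* made up 88.0% of it on average. Of the 4 tested, *S100a8* was called higher between the primed groups (log2 fold change 0.93, SE 0.24, adjusted p = 0.0270), where 4.66% of all genes were called higher, and DESeq2 called 3 of the 4 and limma-voom 2. For Tu-Gr1+CD11b+–primed against parental cells, 2 of the 4 were called higher and 0 lower, beside 31.2% and 28% of all tested genes. The part of the granulocyte and monocyte markers in the results was not tested. Their sum was highest in Tu-Gr1+CD11b+–primed replicate 4, where 8 of the 9 genes were lowest. Of 7 tested epithelial markers, 0 were called between the primed groups by edgeR, DESeq2 or limma-voom (4 at an unadjusted p under 0.05 in edgeR), and all of the list but *Krt5* had reads in each group. The summed CPM of the 8 markers of that list was 1616 to 1957 in Tu-Gr1+CD11b+–primed, 2026 to 2164 in Spl-Gr1+CD11b+–primed and 2286 to 3401 in parental cells, so that the groups did not overlap and Tu-Gr1+CD11b+–primed cells were lowest. Against parental cells, Tu-Gr1+CD11b+–primed cells had 1 of the 7 called higher and 3 lower, and Spl-Gr1+CD11b+–primed cells had 1 higher and 2 lower, beside the 31.2% and 28% of all tested genes in the first case and the 25.7% and 22.5% in the other. Among the Tu-Gr1+CD11b+–primed libraries, the summed CPM of the epithelial markers was highest in replicate 4, where 8 of the 9 genes were lowest. The part of the epithelial markers in the results was not tested either. Each library is a bulk sample, so a change in the share of cells that express a gene and a change of its RNA per cell cannot be told apart.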

How the data were processed

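The authors' tables give, for every transcript in each of the 12 libraries, estimated counts, not normalized, and TPM, scaled for transcript length. The labels' processing notes name FastQC, Trimmomatic 0.39, Salmon 1.4.0 and GRCm38. A further table deposited by the authors holds normalized counts, a signal per gene, used only as an alternative added after seeing the data. The library kit was stranded.

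Estimated counts were summed per gene over the transcripts of GENCODE M21 (GRCm38) and rounded. Of 117081 transcripts, 116021 were annotated, and 0.326% to 0.419% of reads per library fell on the others and were left out. Genes were kept by filterByExpr (12555), scaled by TMM (factors 0.88 to 1.05) and tested in 1 fit of the 12 libraries with edgeR 4.0.16 in R 4.3.3. Limma 3.58.1 and DESeq2 1.42.0 served as alternatives, with other filters, normalizations, transcripts and left-out libraries. The method was tested on simulated data. Tables and plots used Python 3.11.15, numpy 2.4.6, pandas 2.3.3 and matplotlib 3.10.9. Ratios of TPM were compared by an exact permutation test. Replicates of a group differed by more than sampling noise (chi-square divided by its degrees of freedom was at least 3.43).

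The 9 genes and the 7 gene lists were chosen with earlier results of these data known. Named are the 9 genes, *Ifit1bl1* and *Ifit1bl2*, the nearest profile of each gene, and from each list 2 called genes a direction, those of smallest p. Granulocyte markers at 0 and *Mmp9* were named after their values were seen. The precision is given by the spread of 4 libraries. The result of 1 further promoter motif is not reported here.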

Additional observations from a re-analysis of the deposited data

Results flagged for a closer look

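None of the 27 sets of 4 libraries, 1 for each of the 9 genes in each group, held a library far from the other 3 by Dixon's test on log2 CPM.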

How the results depend on the processing

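Over 27 fold changes of the 9 genes, 632 alternatives were computed: 616 kept direction and side of the threshold, 8 lost and 4 gained a call, and 4 changed sign. The sign changes were in uncalled values for Spl-Gr1+CD11b+–primed against parental cells: *Ifit1*, from -0.22 to 0.050 over the left-out libraries, at 0.050 without Spl-Gr1+CD11b+–primed replicate 3, and *Usp18*, from -0.25 to 0.30, at -0.25 without Spl-Gr1+CD11b+–primed replicate 2, -0.11 without parental replicate 2 and -0.08 without parental replicate 4. With at least 10 counts in every library, 6 of the 9 genes could be tested and 5 were called between the primed groups. For Spl-Gr1+CD11b+–primed against parental cells, the count was 3 on the 8 libraries compared and 0 with transcript length offsets, with protein-coding transcripts and with the authors' normalized counts. The protein-coding fit did not test *Uba7*, and the other causes were not tested. Leaving out 1 library gave 8 calls between the primed groups in every case, 8 to 9 for Tu-Gr1+CD11b+–primed and 1 to 3 for Spl-Gr1+CD11b+–primed against parental cells. In the authors' normalized counts, *Uba7* had a log2 fold change of 1.60 (adjusted p = 0.113) between the primed groups (limma), and *Ifit2* of 0.26 (adjusted p = 0.0578) for Tu-Gr1+CD11b+–primed against parental cells.

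Without 1 library, the log2 ratio of *Isg15* between the primed groups ran from -1.91 to -1.37 for *Usp18*, 1.01 to 1.47 for *Uba7*, 1.81 to 2.22 for *Ube2l6* and 1.73 to 2.11 for *Herc6*. Against parental cells it ran from -2.35 to -1.91 for *Usp18*, -0.87 to 0.081 for *Uba7* (0.081 without parental replicate 3), 1.75 to 2.16 for *Ube2l6* and 0.99 to 1.42 for *Herc6*. The ratio to *Uba7* could not be computed on protein-coding transcripts, since these were at 0 in most libraries. Between samples of the same replicate number, the deviations from the group means had correlations of -0.164 to 0.148. Samples of unlike number were not correlated for comparison, so these values cannot show whether the numbers pair the samples. A replicate block kept 8, 9 and 1 calls in the 3 comparisons. In the paired sign-flip test the ratios stayed at -1.64, 1.29, 2.02, 1.89, -2.08, 1.96 and 1.21, with the smallest p that 4 pairs allow, 0.125 (0.143 adjusted).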
